A study of Homo sapiens with 6 samples.

Results

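The genes described here encode the nuclear-encoded subunits of the mitochondrial respiratory chain and ATP synthase, measured in A549 cells. They were chosen by name: every gene with a single symbol on the array annotation that begins with NDUFA, NDUFB, NDUFC, NDUFS, NDUFV, SDHA to SDHD, UQCR, COX4I, COX5, COX6, COX7, COX8 or ATP5, leaving out assembly factors, antisense genes and pseudogenes. This gave 66 of 11963 genes, 28 in complex I, 3 in complex II, 6 in complex III, 13 in complex IV and 16 in complex V. Where a gene had several probe sets, the brightest over the 6 arrays stood for it. NDUFS5, NDUFS8, NDUFC2, UQCRH and ATP5MF share their probe sets with other symbols and are therefore not among the 66, and SDHB, UQCRFS1 and COX4I2 are missing because no probe set here carried their symbol alone. NDUFA4 is listed under its later symbol COXFA4 and is given beside the other mitochondrial genes.

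A549 is an established human lung adenocarcinoma line of alveolar epithelial type. The study comprised 6 GeneChip arrays, 2 in each of 3 groups. The PIAS3 group was transfected with the pCMV5 vector carrying human PIAS3, a SUMO ligase that inhibits STAT3, and the STAT3 siRNA group with an siRNA against STAT3. Control cells received EGF and, by their labels, no transfection. The labels name no empty vector and no control siRNA, so the cargo and the transfection itself cannot be told apart in either comparison with control. Cells were seeded for 12 h with 10% fetal bovine serum, by the labels. By the series description every group was kept without serum and given EGF, although EGF appears only in the titles of the controls. RNA was taken 48 h after transfection. Whether paired arrays of a group stem from different cultures is not stated, so p-values reflect array-to-array spread that could be purely technical. In bulk RNA, fewer cells of a kind and less RNA per cell cannot be told apart.

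The respiratory chain passes electrons from NADH (complex I) and succinate (complex II) through ubiquinone to complex III, cytochrome c and complex IV, which reduces oxygen. Complexes I, III and IV pump protons across the inner mitochondrial membrane, and ATP synthase, complex V, uses the gradient to make ATP. Most subunits are encoded in the nucleus and the rest in mitochondrial DNA, and their genes are known targets of the transcription factors NRF1 and GABP, with coactivators of the PGC-1 family. STAT3 bears on this chain in a direct way as well: a fraction of STAT3 is found in mitochondria, and the complex I subunit NDUFA13, also called GRIM-19, was described as a binding partner and inhibitor of STAT3.

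Array medians lay between 6.63 and 6.72 on the log2 scale. Epithelial markers of A549 were bright, 7 of 8 above 8 on every array (EPCAM being the exception). Fibroblast, leukocyte and endothelial markers averaged 5.04 to 5.42. Among these only COL1A1, a fibroblast marker, stood above 8 on every array. STAT3 itself read 10.50 and 10.43 in the controls, 10.23 and 9.94 with the siRNA and 10.18 and 9.70 with PIAS3, and its differences from control of -0.38 ± 0.18 (SE) and -0.53 ± 0.18 did not pass (limma adjusted p of 1.0 and 0.254). The PIAS3 probe set read 7.78 and 7.72 in the arrays labelled PIAS3 against 7.70 and 7.71 in the controls (0.04 ± 0.11). Where its probes lie relative to the insert is not known here, so it does not bear out the label, and every direction given for PIAS3 or the siRNA rests on the labels. PIAS3 replicate 1 stood apart from the other arrays. Its 33 interferon-stimulated genes had a median of 3.52 above the control mean, against 0.02 in PIAS3 replicate 2. Its poly-A spike-in probe sets lay 1.41 above, against -0.13. Actin at the 3' end read above the 5' end by 0.43 in that array, 0.28 in PIAS3 replicate 2, 0.16 and 0.23 in the siRNA arrays and 0.12 and 0.10 in the controls. Several results that rest on PIAS3 replicate 1 are given with and without it, and for others the single arrays are given.

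Probe sets of the subunit genes were bright, although signals of different probe sets do not rank amounts of RNA. Their mean levels ran from 4.75 to 12.75 with a median of 11.38, against 7.24 over all genes, and 50 of the 66 lay in the brightest 10% of genes. On every array all 66 exceeded the bacterial Trpn probe sets, which have no target in these cells and read 3.26 to 3.93. The dimmest were COX7A1 and COX6A2, which encode the subunit isoforms known from heart and skeletal muscle. COX7A1 read 4.83 and 4.74 in the controls, 4.89 and 4.48 with the siRNA and 4.81 and 4.77 with PIAS3. COX6A2 read 6.27 and 6.16, then 6.09 and 6.24, then 6.45 and 6.26. Neither gene's transfected arrays stood clear of the controls, while for COX6A2 both PIAS3 arrays read above both siRNA arrays. Across the 6 arrays the subunit genes varied little: the range from lowest to highest array had a median of 0.36, and was 0.10 for COX6C and 0.86 for SDHC.

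In no comparison did a subunit gene pass the threshold (limma, adjusted p over all 22215 probe sets under 0.05). For PIAS3 against control the smallest adjusted p among the 66 was 0.178, for the siRNA 0.959, and for PIAS3 against the siRNA 0.631. Over all probe sets, 0.099% were called for PIAS3 against control, 0.0045% for the siRNA against control and 0.0% for PIAS3 against the siRNA. Counted by gene the shares were 0.125%, 0.00836% and 0.0%, so these arrays gave few calls of any kind. No subunit gene differed by more than 0.5 on the log2 scale in any of the 3 comparisons. The median standard error of a member's difference was 0.13.

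For PIAS3 against control, the median difference over the 66 genes was 0.00, and -0.00 over all genes. In all, 35 genes (53.0%) lay above control and 31 below, against 49.1% of all genes above. At an unadjusted p under 0.05, 5 were higher (7.58%) and 0 lower, where all genes gave 7.13% higher and 7.44% lower. The share of subunit genes that was higher is near the background, so the count of 5 says nothing particular about the subunits. Both PIAS3 arrays read above both controls for 9 genes, 13.6% against 22.4% of all genes, and below both for 4, 6.06% against 23.7%. The first contrast turned with the scaling: the shares above both controls were 39.4% of the subunits against 25.9% of all genes after cyclic loess, and 28.8% against 24.0% after quantile normalization again. The second kept its direction: the shares below both were 1.52% against 21.9% and 3.03% against 23.1% in that order. With centring on array medians they were 6.06% against 25.3%.

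The 5 genes with the smallest p were COX7A2L, COX7A2, NDUFA10, COX5B and NDUFB3. COX7A2L (Entrez gene 9167) encodes a factor that joins complexes III and IV in supercomplexes. It read 10.58 and 10.77 in the controls, 11.00 and 11.06 with the siRNA and 11.05 and 11.18 with PIAS3. All 4 transfected arrays lay above both controls. The difference was 0.44 ± 0.12 with PIAS3 (1.35-fold, unadjusted p = 0.00702, limma adjusted p = 0.178) and 0.35 ± 0.12 with the siRNA (unadjusted p = 0.0202, limma adjusted p = 0.959). Without PIAS3 replicate 1 the first value was 0.50, and without replicate 2 it was 0.37.

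COX7A2 (Entrez gene 1347), the complex IV subunit isoform made in most tissues, read 11.71 and 11.79 in the controls, 11.99 and 11.87 with the siRNA and 12.07 and 12.05 with PIAS3. The transfected arrays again lay above both controls. The differences were 0.31 ± 0.11 with PIAS3 (limma adjusted p = 0.255) and 0.18 ± 0.11 with the siRNA. COX5B (Entrez gene 1329), a zinc-binding subunit on the matrix side of complex IV, read 11.53 and 11.55 in the controls, 11.69 and 11.95 with the siRNA and 11.75 and 12.15 with PIAS3. Its groups against control did not overlap, but replicate 2 of each transfected group stood well above replicate 1. The differences were 0.41 ± 0.16 (limma adjusted p = 0.318) and 0.28 ± 0.16. Without PIAS3 replicate 1 the PIAS3 difference was 0.61, and without replicate 2 it was 0.21. COX5B has 3 further probe sets, which gave 0.38, 0.37 and 0.04 for PIAS3, the last of them from the dimmest probe set.

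NDUFA10 (Entrez gene 4705), an accessory subunit of complex I, read 10.34 and 10.20 in the controls, 10.41 and 10.84 with the siRNA and 10.61 and 10.83 with PIAS3. The siRNA arrays differed from each other by more than the lower of them differed from control. The differences from control were 0.45 ± 0.16 with PIAS3 (limma adjusted p = 0.291) and 0.35 ± 0.16 with the siRNA. NDUFB3 (Entrez gene 4709), an accessory subunit of the membrane arm, read 9.79 and 10.11 in the controls, 10.15 and 10.25 with the siRNA and 10.21 and 10.39 with PIAS3. Its controls stood well apart from each other, and the lower siRNA array lay just above the higher control. The differences were 0.36 ± 0.14 with PIAS3 (limma adjusted p = 0.325) and 0.25 ± 0.14 with the siRNA. Without control replicate 1 the PIAS3 value was 0.20, and without control replicate 2 it was 0.51.

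NDUFA13 (Entrez gene 51079), the subunit that binds STAT3, read 11.31 and 11.27 in the controls, 11.34 and 11.33 with the siRNA, and 10.86 and 11.44 with PIAS3. The PIAS3 arrays lay on either side of all the others. Its difference from control was -0.14 ± 0.18 with PIAS3 (95% interval -0.57 to 0.29) and 0.05 ± 0.18 with the siRNA (-0.38 to 0.48), and neither passed (limma adjusted p of 0.828 and 1.0). Without PIAS3 replicate 1 the PIAS3 value turned to 0.16, and without replicate 2 it was -0.43, and neither passed. No difference of NDUFA13 between the groups was detectable with this number of arrays.

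**Figure D1:**
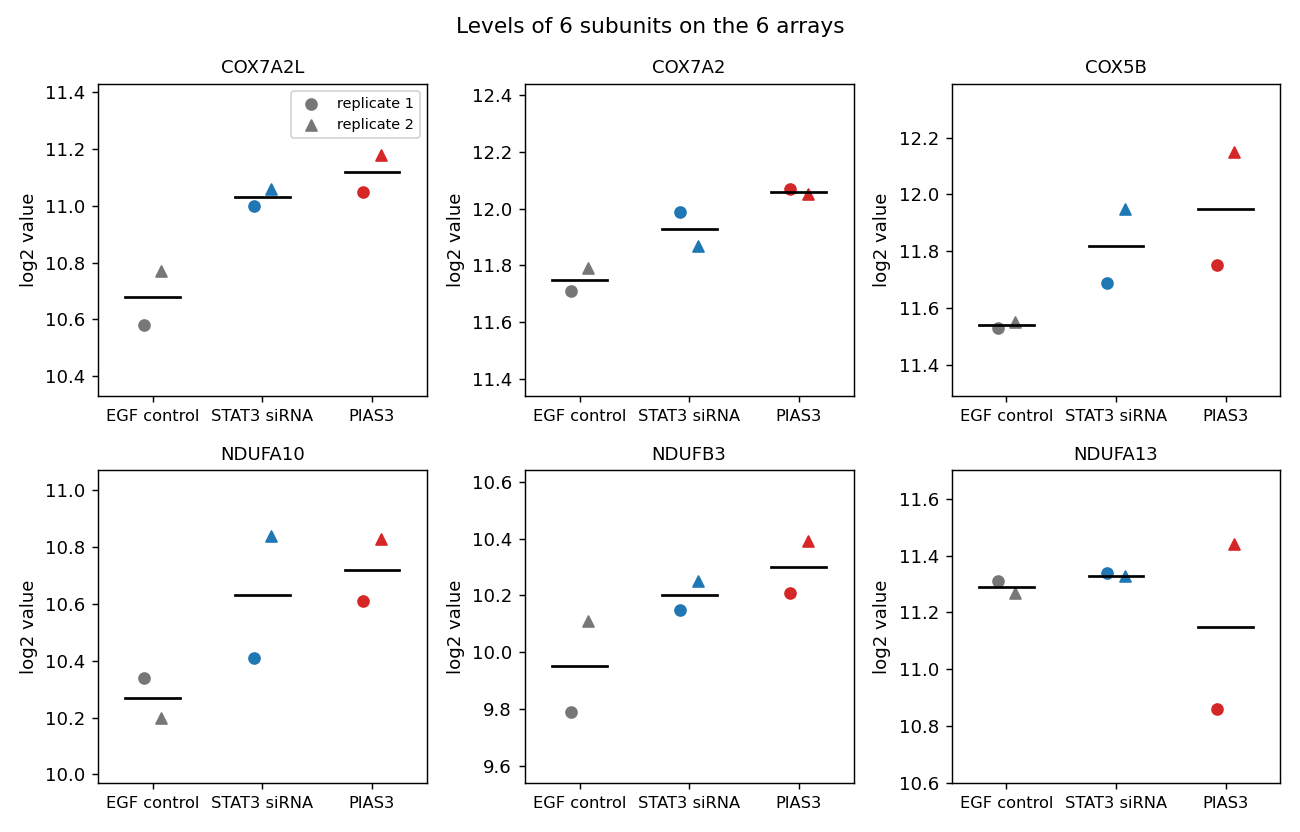
Levels on the log2 scale (vertical axis, each panel spanning the same range) of the 5 subunit genes with the smallest p for PIAS3 against control and of NDUFA13, by group; circles are replicate 1, triangles replicate 2 and black lines the means of 2 arrays. In the first 5 panels, chosen by their p, the transfected arrays lie above both controls, as they do for 8 of the 66 genes and 1078 of all 11963, while the PIAS3 arrays of NDUFA13 stand at 10.86 and 11.44 around controls of 11.31 and 11.27.

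The bases before the start of COX7A2L, NDUFA10, COX5B and NDUFB3, which had some of the largest differences from control, and of NDUFA13 are shown as examples of promoter windows listed for these genes. Which start a probe set reads was not tested. They are RefSeq sequences on GRCh38.p14, 5′ to 3′ on the gene's strand, and end at the base before the transcription start. Capitals mark matches on either strand to GGGCGG (the SP1 motif), CCGGAAG (the ETS motif bound by GABP) and TTCNNNGAA (the STAT motif). No matches overlap in the sequences shown.
COX7A2L: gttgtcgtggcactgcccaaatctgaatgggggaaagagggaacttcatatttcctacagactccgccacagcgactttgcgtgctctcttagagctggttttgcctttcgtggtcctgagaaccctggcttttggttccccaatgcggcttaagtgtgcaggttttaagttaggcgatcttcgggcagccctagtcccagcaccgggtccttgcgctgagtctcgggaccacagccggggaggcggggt
NDUFA10: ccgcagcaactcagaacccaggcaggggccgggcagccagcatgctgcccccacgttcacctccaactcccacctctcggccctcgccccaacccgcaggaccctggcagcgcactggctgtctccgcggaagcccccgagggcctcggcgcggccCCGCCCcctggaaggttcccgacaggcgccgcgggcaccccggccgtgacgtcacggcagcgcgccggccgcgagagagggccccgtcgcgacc
COX5B: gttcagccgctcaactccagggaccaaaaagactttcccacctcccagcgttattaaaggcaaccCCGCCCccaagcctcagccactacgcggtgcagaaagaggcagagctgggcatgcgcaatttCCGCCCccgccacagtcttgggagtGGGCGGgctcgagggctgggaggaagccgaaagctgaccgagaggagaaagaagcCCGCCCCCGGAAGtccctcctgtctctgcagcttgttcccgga
NDUFB3: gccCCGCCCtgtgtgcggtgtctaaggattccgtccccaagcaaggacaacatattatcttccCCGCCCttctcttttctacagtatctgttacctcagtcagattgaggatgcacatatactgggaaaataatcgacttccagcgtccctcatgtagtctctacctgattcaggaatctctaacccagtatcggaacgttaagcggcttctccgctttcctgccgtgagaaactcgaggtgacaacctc
NDUFA13: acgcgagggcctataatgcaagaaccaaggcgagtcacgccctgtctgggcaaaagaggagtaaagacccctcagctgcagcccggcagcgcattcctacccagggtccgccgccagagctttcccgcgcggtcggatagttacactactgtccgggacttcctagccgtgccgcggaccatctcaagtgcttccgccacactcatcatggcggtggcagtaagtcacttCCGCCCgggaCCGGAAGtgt
The COX7A2L window is the first of 2 listed for the gene, at chr2:42361218-42361467 on the minus strand, and holds no match, while the second holds 1 SP1 match. NDUFA10 lies at chr2:240025343-240025592 on the minus strand with 1 SP1 match. COX5B, at chr2:97645812-97646061 on the plus strand, holds 4 SP1 matches and 1 ETS match, which directly follows the SP1 match nearest to the start. NDUFB3, at chr2:201071751-201072000 on the plus strand, holds 2 SP1 matches, and NDUFA13, at chr19:19515975-19516224 on the plus strand, 1 SP1 and 1 ETS match. No sequence shown holds a STAT match. COX7A2, which is not shown, has 2 windows listed, and the first holds 1 STAT match.

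Windows of this kind, 250 bases before a start, were listed for 58 of the 66 genes. At least 1 window held the ETS letters for 15 of the 58 genes (25.9%), against 10.2% of the 27305 genes with a window. The letters GCGCATGC, a part of the NRF1 motif that is not marked by capitals above, were found for 12 (20.7% against 3.22%), COX5B among them. The full NRF1 motif was found for 3 (5.17% against 1.28%), which are ATP5F1C, NDUFB4 and SDHD. SP1 letters were found for 36 (62.1% against 46.2%) and STAT letters for 3 (5.17% against 8.09%), which are COX7A2, COX8A and NDUFA5. The median difference from control of the 15 genes with ETS letters was -0.03 with PIAS3 and 0.10 with the siRNA, against 0.01 and 0.10 for the 43 without. A match of letters is a description and not evidence of binding.

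For the STAT3 siRNA against control, small differences pointed the same way for most subunits. The median was 0.10, against -0.00 over all genes, and 59 of 66 lay above control (89.4%, against 49.5% of all genes). Both siRNA arrays read above both controls for 41 genes (62.1%), against 19.4% of all genes and 28.3% of the brightest 10% of genes. They read below both for 0 subunit genes, against 19.5% of all genes. The range of differences was -0.10 to 0.36. At an unadjusted p under 0.05 only COX7A2L was higher and 0 were lower (1.52% higher, where all genes gave 2.32% higher and 3.06% lower), so most of these differences were smaller than the fit can tell from the spread between arrays. The siRNA arrays had member medians of 0.13 and 0.05 above the control mean, and the controls -0.02 and 0.02. The count of 41 was 32 with quantile normalization again (48.5%, against 19.8% of all genes). With cyclic loess it was 36 (54.5% against 19.5%), and with centring on array medians 43 (65.2% against 18.4%). Of the brightest 10% of genes the shares were 25.6%, 25.4% and 25.8% in that order. The count was 44 by siRNA replicate 2 alone and 58 by siRNA replicate 1 alone, where only 1 array must clear both controls. The shares of all genes for these 2 counts were not taken, so neither can be set against a background.

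The medians for the siRNA were 0.11 in complex I, 0.10 in complex II, 0.09 in complex III, 0.09 in complex IV and 0.10 in complex V. Above control were 26 of 28, 3 of 3, 4 of 6, 11 of 13 and 15 of 16 genes in that order. Without siRNA replicate 1 the medians were 0.07, 0.00, 0.01, 0.11 and 0.08, and without siRNA replicate 2 they were 0.14, 0.21, 0.12, 0.10 and 0.12, so those of complexes II and III came mostly from replicate 1. ATP5MC3, a gene for the membrane c-ring of ATP synthase, had the largest siRNA difference, 0.36 ± 0.21 (limma adjusted p = 1.0). It read 11.68 and 11.79 in the controls, 11.99 and 12.21 with the siRNA and 11.63 and 12.31 with PIAS3. ATP5F1B, the catalytic beta subunit, read 12.49 and 12.49 in the controls against 12.64 and 12.72 with the siRNA and 12.42 and 12.70 with PIAS3. ATP5F1A, the alpha subunit, read 12.44 and 12.50, then 12.57 and 12.51, then 12.28 and 12.64. For all 3 the PIAS3 arrays lay on opposite sides of the controls.

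**Figure D2:**
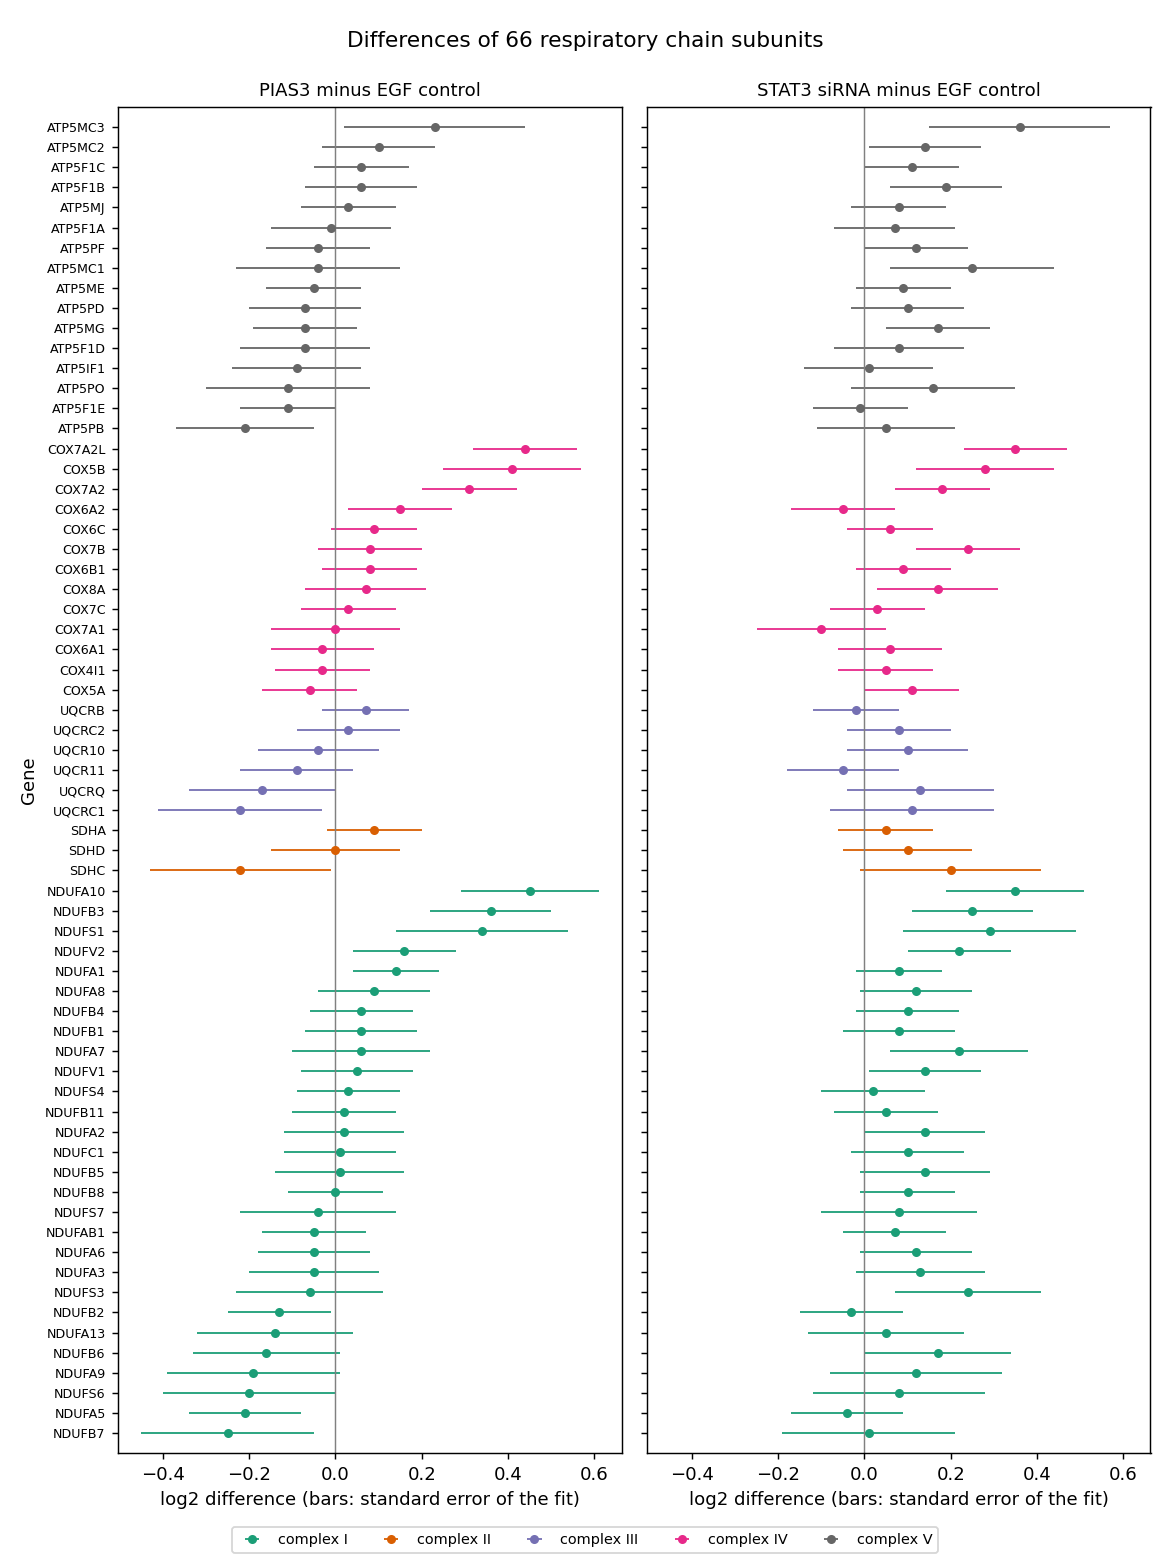
Log2 difference from the EGF control (horizontal axis) of each of the 66 subunit genes (vertical axis), with PIAS3 on the left and the STAT3 siRNA on the right; points are fitted differences, bars the standard error of the fit and colours the complex. With the siRNA 59 of 66 points lie above 0, and with PIAS3 35 of 66.

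The PIAS3 arrays disagreed with each other across the chain. PIAS3 replicate 2 read above replicate 1 for 59 of 66 genes (89.4%, against 54.4% of all genes), by a median of 0.25. PIAS3 replicate 1 was the lowest of the 6 arrays for 45 genes (68.2%), against 30.0% of all genes and 56.7% of the brightest 10% of genes. PIAS3 replicate 1 lay below both controls for 47 of the 66 genes, against 43.8% of all genes. Replicate 2 lay above both for 53, against 39.4% of all genes. For 39 genes both held, so that the PIAS3 arrays lay on opposite sides of both controls. The share of all genes for which both held was not counted, so the count of 39 cannot be set against a background. The member median was -0.11 from the control mean in replicate 1 and 0.13 in replicate 2, so the PIAS3 median of 0.00 averages values of opposite sign. Without replicate 1 it was 0.13, and without replicate 2 it was -0.11.

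The low values of PIAS3 replicate 1 were not confined to the subunits, and they changed with the scaling. Whether they depend on signal level was not tested. The brightest 10% of genes had a median of -0.15 from control in that array and -0.00 in PIAS3 replicate 2. After cyclic loess, which by construction evens out differences that depend on level, these genes stood at -0.01 and the subunits at 0.02. The count of 45 then fell to 23 (34.8%, against 24.6% of all genes and 33.8% of the brightest 10%). With quantile normalization again the subunits stood at -0.03 and the count was 31 (47.0%, against 28.0% of all genes and 42.7% of the brightest 10%). PIAS3 replicate 2 kept a member median of 0.14 with either. In the same array interferon-stimulated genes, spike-ins and the actin 3' to 5' difference were raised, and their part in these values was not tested.

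In complex V PIAS3 replicate 1 had a median of -0.17 and replicate 2 of 0.13. Replicate 1 was the lowest array for 14 of its 16 genes. Complex I stood at -0.16 and 0.16, with replicate 1 the lowest for 21 of 28 genes. Complex III stood at -0.14 and 0.06, and complex II at -0.11 and 0.11. Complex IV stood at 0.02 and 0.10, and replicate 1 was the lowest for 5 of its 13 genes. These medians are of the values as deposited, and no test of a difference between complexes was made.

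**Figure D3:**
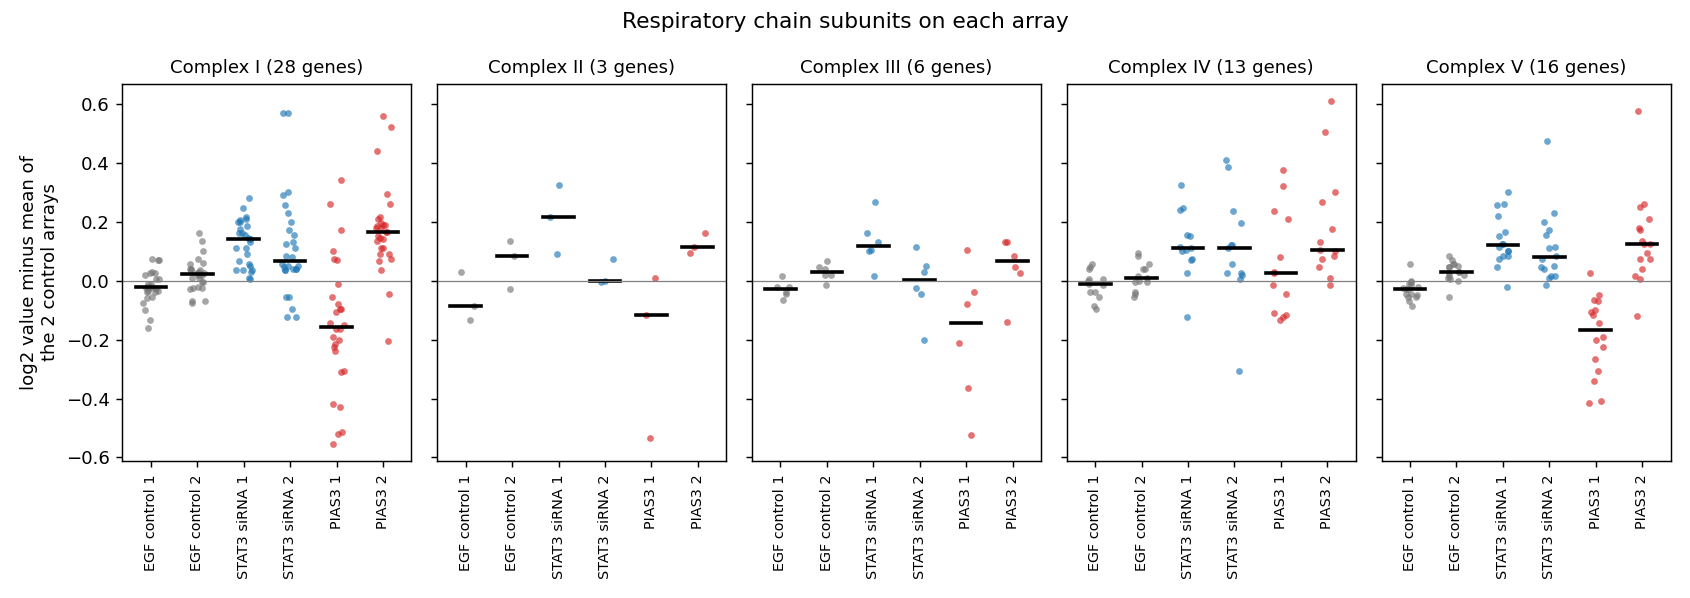
Log2 value of each subunit gene minus the mean of the 2 control arrays (vertical axis) on each array (horizontal axis), 1 panel per complex; points are genes and black lines medians. Medians of PIAS3 replicate 1 lie at -0.16 in complex I and -0.17 in complex V and at 0.02 in complex IV, and those of both siRNA arrays lie at or above 0.00 in every complex; after cyclic loess the median of the 66 genes in PIAS3 replicate 1 was 0.02.

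Among the core subunits of complex I, NDUFV1, which carries the NADH-binding site, read 11.30 and 11.15 in the controls, 11.37 and 11.35 with the siRNA and 11.13 and 11.42 with PIAS3. NDUFV2, its iron-sulfur partner, read 10.04 and 10.12, then 10.24 and 10.37, then 10.15 and 10.34. All transfected arrays lay above both controls for NDUFV2, while for NDUFV1 the siRNA arrays did and the PIAS3 arrays lay on either side. The NDUFV2 differences of 0.22 ± 0.12 with the siRNA and 0.16 ± 0.12 with PIAS3 did not pass (limma adjusted p of 1.0 and 0.623). NDUFS3, a core subunit of the matrix arm, read 9.83 and 9.87 in the controls, 10.13 and 10.05 with the siRNA, and 9.54 and 10.04 with PIAS3. Its siRNA difference was 0.24 ± 0.17 and its PIAS3 difference -0.06 ± 0.17. That PIAS3 difference was 0.19 without PIAS3 replicate 1 and -0.31 without PIAS3 replicate 2.

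In complex II, the succinate dehydrogenase that also serves the citric acid cycle, SDHA, the flavoprotein, read 10.95 and 10.89 in the controls, 11.01 and 10.92 with the siRNA and 10.93 and 11.08 with PIAS3. SDHC and SDHD encode the membrane anchors. SDHC read 9.82 and 9.99, then 10.23 and 9.98, then 9.37 and 10.00, the widest range of the 66. Its 3 other probe sets gave PIAS3 differences of -0.18, -0.23 and -0.40 beside -0.22 ± 0.21 for the brightest (limma adjusted p = 0.725). For the brightest, the difference was 0.09 without PIAS3 replicate 1 and -0.53 without PIAS3 replicate 2. SDHD read 9.85 and 10.12, then 10.20 and 9.98, then 9.87 and 10.10. The groups overlapped for all 3 genes.

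In complex III, UQCRC1, a core protein, read 11.10 and 11.07 in the controls, 11.19 and 11.20 with the siRNA and 10.56 and 11.17 with PIAS3. It gave -0.22 ± 0.19 for PIAS3 against control (limma adjusted p = 0.693) and -0.33 for PIAS3 against the siRNA. Without PIAS3 replicate 1 these were 0.09 and -0.02. UQCRQ and UQCR10 are small accessory subunits. UQCRQ read 11.89 and 12.02, then 12.22 and 11.93, then 11.59 and 11.98. UQCR10 read 11.87 and 11.91, then 12.05 and 11.94, then 11.68 and 12.02. PIAS3 replicate 1 was the lowest array for all 3 genes.

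In complex IV, COX4I1, the isoform of subunit IV made in most tissues, read 12.65 and 12.64 in the controls, 12.72 and 12.67 with the siRNA and 12.51 and 12.73 with PIAS3. COX5A, a matrix-side subunit, read 12.45 and 12.53, then 12.60 and 12.61, then 12.38 and 12.50. Against control COX4I1 differed by -0.03 with PIAS3 and 0.05 with the siRNA, and its dimmest probe set by 0.31 and 0.36. COX5A differed by -0.06 and 0.11 from control and by -0.16 between PIAS3 and the siRNA, with both PIAS3 arrays below both siRNA arrays. In complex V, ATP5MG, a membrane subunit, read 11.99 and 12.05, then 12.24 and 12.13, then 11.82 and 12.06. ATP5PB, of the peripheral stalk, read 12.11 and 12.28, then 12.28 and 12.21, then 11.78 and 12.20. ATP5IF1, the inhibitor of the enzyme's ATP hydrolysis, read 9.30 and 9.31, then 9.35 and 9.29, then 9.0 and 9.44. For these 3 genes the PIAS3 replicate 1 value was the lowest of all arrays, and the siRNA arrays lay above both controls for ATP5MG alone.

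For PIAS3 against the STAT3 siRNA the median over the subunits was -0.10, and 13 of 66 genes lay above 0 (19.7%, against 49.6% of all genes). Both PIAS3 arrays read above both siRNA arrays for 3 genes (4.55%, against 17.0% of all genes) and below for 10 (15.2%, against 17.5%). In complex V all 16 lay below 0, with a median of -0.13. Neither sign nor size held without PIAS3 replicate 1: the median of the 66 was then 0.04, and without PIAS3 replicate 2 it was -0.22. At an unadjusted p under 0.05 there were 0 genes in either direction, where all genes gave 4.19% higher and 3.83% lower. This comparison shares the siRNA arrays and the PIAS3 arrays with the other comparisons and is not independent of them.

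Other mitochondrial genes were read from lists of known members. Of 27 measured assembly factors, 9 cytochrome c and carrier genes, 18 regulators of mitochondrial gene expression, 16 genes of the citric acid cycle and pyruvate dehydrogenase and 51 mitochondrial ribosomal protein genes, 0 passed in any comparison (limma adjusted p). At an unadjusted p under 0.05 for PIAS3 against control, 1, 1, 1, 1 and 0 were higher and 0, 0, 1, 0 and 0 lower. The shares higher were 3.70%, 11.1%, 5.56%, 6.25% and 0.0%, where all genes gave 7.13%, and the regulators had 5.56% lower, where all genes gave 7.44%. The medians for the siRNA were 0.03, 0.15, 0.05, 0.11 and 0.08 in that order. For PIAS3 they were -0.07, -0.01, -0.08, -0.03 and -0.14. In PIAS3 replicate 1 the mitochondrial ribosomal protein genes stood at -0.35, with 1 of 51 above the control mean, and in PIAS3 replicate 2 at 0.05.

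**Figure D4:**
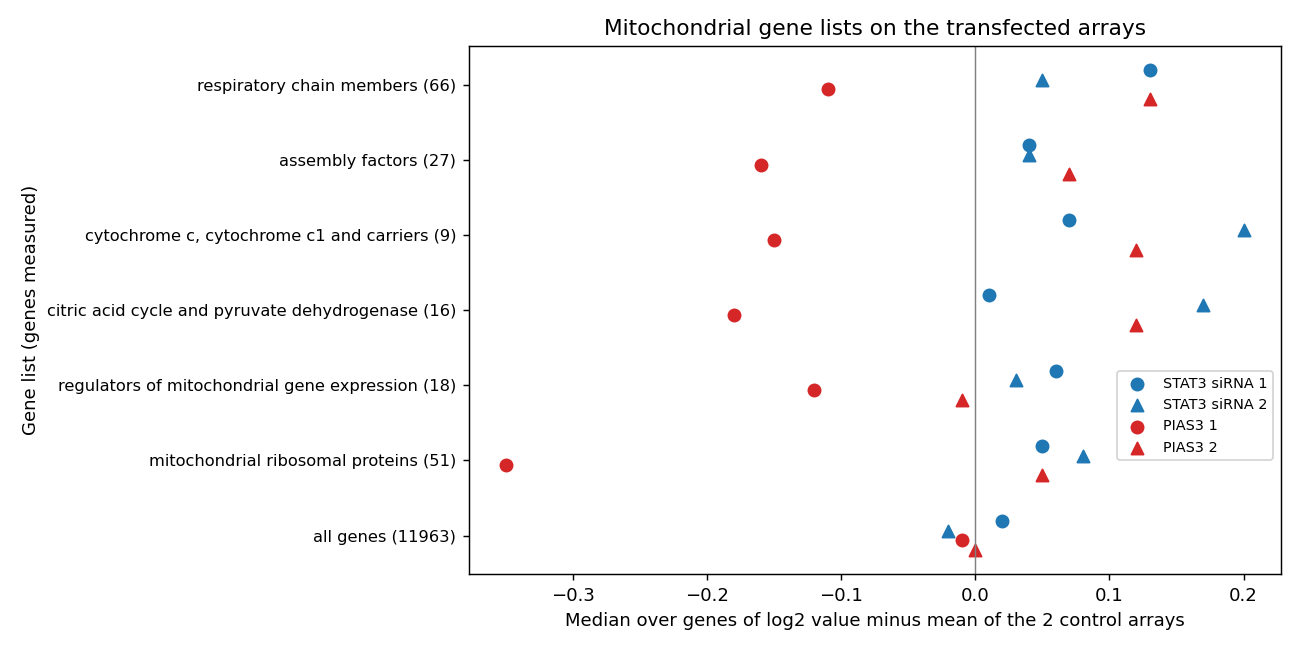
Median over the genes of each mitochondrial list (vertical axis, number measured in brackets) of the log2 value minus the mean of the 2 control arrays (horizontal axis); colours mark the group, circles replicate 1 and triangles replicate 2. PIAS3 replicate 1 lies below 0 for every mitochondrial list, down to -0.35 for the ribosomal protein genes, while all genes stay between -0.02 and 0.02; after cyclic loess the subunits stood at 0.02 in that array, and the other lists were not rescaled.

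Among the regulators, PPARGC1A, the coactivator PGC-1 alpha that promotes mitochondrial gene expression, came nearest to the threshold. It read 4.46 and 4.65 in the controls, 4.95 and 5.44 with the siRNA and 5.80 and 5.84 with PIAS3. These levels are low: the median over all genes was 7.24, and fibroblast, leukocyte and endothelial markers averaged 5.04 to 5.42. The 3 groups did not overlap. Both PIAS3 arrays read above both controls for 22.4% of all genes, and both siRNA arrays for 19.4%. The share of all genes with all 3 groups apart was not counted. The difference was 1.27 ± 0.17 with PIAS3 (limma adjusted p = 0.0582) and 0.64 ± 0.17 with the siRNA (limma adjusted p = 0.762). SSBP1, which binds single-stranded mitochondrial DNA, stood at -0.31 ± 0.13 with PIAS3 and 0.03 ± 0.13 with the siRNA. Its PIAS3 arrays read 11.0 and 11.29, against 11.4 and 11.5 in the controls. PPRC1, a relative of PGC-1 alpha, stood at -0.33 ± 0.14 with PIAS3 and -0.34 ± 0.14 with the siRNA. TFAM, which packages mitochondrial DNA, read 9.78 and 9.90 in the controls, 9.95 and 9.86 with the siRNA and 9.16 and 9.77 with PIAS3, with PIAS3 replicate 1 again the lowest. NRF1 differed by -0.08 ± 0.15 with PIAS3 and 0.07 ± 0.15 with the siRNA.

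UCP2, an inner membrane carrier, read 9.74 and 9.84 in the controls, 10.36 and 10.23 with the siRNA and 10.14 and 10.34 with PIAS3, a difference of 0.50 ± 0.12 and 0.45 ± 0.12 (limma adjusted p of 0.678 and 0.177). All 4 transfected arrays lay above both controls. COX20, an assembly factor of complex IV, differed by 0.46 ± 0.13 with the siRNA and 0.41 ± 0.13 with PIAS3 (limma adjusted p of 0.870 and 0.247), and its arrays did not overlap the controls either. Its levels were low, from 5.32 to 5.96. SCO2, a copper chaperone of complex IV, stood at 0.29 ± 0.13 with PIAS3, and TTC19, which acts in complex III assembly, at -0.26 ± 0.11. The adenine nucleotide carrier SLC25A4 stood at -0.28 ± 0.14 with PIAS3. Its PIAS3 arrays read 8.58 and 8.94, against 9.02 and 9.06 in the controls. Cytochrome c (CYCS) read 12.21 and 12.31 in the controls, 12.27 and 12.38 with the siRNA and 12.22 and 12.21 with PIAS3. COXFA4, the complex IV subunit once named NDUFA4, read 11.98 and 12.13, then 12.26 and 12.17, then 12.04 and 12.21. Pyruvate carboxylase (PC), which supplies oxaloacetate, stood at 0.35 ± 0.14 with PIAS3, and MRPL58, of the mitochondrial ribosome, at -0.36 ± 0.18. MRPL20 and MRPL46, also of the mitochondrial ribosome, stood at -0.26 ± 0.13 and -0.29 ± 0.15, and DLD and PDHB, of the pyruvate dehydrogenase complex, at -0.19 ± 0.11 and 0.20 ± 0.14. With PIAS3, MRPL58 read 9.36 and 9.92, against 10.01 and 9.99 in the controls. MRPL20 read 9.98 and 10.29 against 10.41 and 10.37, and MRPL46 9.16 and 9.6 against 9.68 and 9.66. For these ribosomal genes PIAS3 replicate 1 was the lowest array. COXFA4L2, once NDUFA4L2, differed by -0.00 ± 0.14 with PIAS3 and 0.14 ± 0.14 with the siRNA. None of these differences passed.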

How the data were processed

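RNA of A549 cells was measured on 6 GeneChip arrays. The deposited values are log2 signals of probe sets. RMA is the method named by the submitters' processing notes, with no version, software or annotation release stated in these sources. RMA subtracts background, quantile-normalizes and combines probes, which narrows differences at both ends of the signal range.

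Of 22277 probe sets, 62 array controls were left out and 22215 tested. The platform annotation gave 19064 of them 1 symbol, 1043 several and 2108 none. Groups and replicate numbers came from the sample titles. limma 3.58.1 (lmFit, eBayes; two-sided; R 4.3.3) was fitted once to the 6 arrays with a mean per group, which left 3 residual degrees of freedom beside 4.27 from the prior. Benjamini-Hochberg adjustment ran across the probe sets of each comparison, at a threshold of 0.05. Errors are the fit's standard errors with n = 2 arrays per group, a number that limits the precision. The code was tested on simulated data. The members and lists were chosen with earlier results of these data known.

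Genes named in the text were the 3 of each complex with the smallest moderated F p, those at an unadjusted p under 0.05 against control, subunits chosen for their known roles, and up to 3 per mitochondrial list with the smallest p for PIAS3. CYCS, TFAM, NRF1, COX6A2 and COX6C were named after their values were seen. Same-numbered arrays of different groups did not deviate together (correlations of -0.047, 0.092 and -0.059), so the numbers were not taken as pairs. No hybridisation or scan batch was analysed. The alternatives are a replicate block, quantile normalization again, centring, cyclic loess, testing only probe sets over the 40th percentile in mean signal, trend and robust eBayes, array weights, the 2 groups alone, an adjusted p of 0.10, averaging a gene's probe sets, and omission of each array in turn.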

Additional observations from a re-analysis of the deposited data

Results flagged for a closer look

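The poly-A spike-in probe sets, which no comparison uses, read 1.41 on the log2 scale above the control mean in PIAS3 replicate 1 (median of 24 probe sets), against -0.13 in PIAS3 replicate 2, -0.36 and -0.23 in the siRNA arrays and -0.03 and 0.03 in the controls. This is the array in which 45 of the 66 subunit genes were at their lowest, and the part of the spike-ins in that was not tested. Groups of 2 arrays are too small for a check of single outlying arrays.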

How the results depend on the processing

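The count of subunit genes past the threshold stayed at 0 in the 3 comparisons under the alternatives run, except that 0 to 1 was called for PIAS3 against the siRNA with arrays left out: UQCRC1, at -0.63 without PIAS3 replicate 2 (limma adjusted p = 0.0485), a fit that rests on PIAS3 replicate 1 alone. The siRNA median of the 66 genes ranged from 0.05 to 0.13. The PIAS3 median ranged from -0.11 to 0.13 against control and from -0.22 to 0.04 against the siRNA with arrays left out, with the extremes set by the PIAS3 arrays. Genes with both PIAS3 arrays above both controls numbered 9, against 19 with quantile normalization again (28.8%, against 24.0% of all genes). With cyclic loess they numbered 26 (39.4% against 25.9%), and with arrays left out 9 to 53. The highest came without PIAS3 replicate 1, where only PIAS3 replicate 2 must clear both controls, as it did for 39.4% of all genes. Genes lowest in PIAS3 replicate 1 numbered 45 (68.2%, against 56.7% of the brightest 10% of genes), and 23 with cyclic loess (34.8% against 33.8%). These counts by array position were added after the data were seen.

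Over all probe sets, PIAS3 against control gave 6 higher and 16 lower. The counts were 1 and 1 with the replicate block, 0 and 2 with either the filter or repeated quantile normalization, 10 and 29 with cyclic loess, 18 and 40 with trend and robust eBayes, 57 and 86 with array weights, 130 and 132 with the 2 groups alone, 115 and 139 at an adjusted p of 0.10, and 0 to 541 and 0 to 691 with arrays left out. The siRNA against control gave 0 higher and 1 lower, then 0 lower with quantile normalization again or cyclic loess, 8 with array weights, 3 with the 2 groups alone, and 0 to 2 higher and 0 to 3 lower with arrays left out. PIAS3 against the siRNA gave 0 and 0, then 0 to 282 and 0 to 262 with arrays left out. The highest counts for PIAS3 in both comparisons came without PIAS3 replicate 2. Without either siRNA array, PIAS3 against control gave the same counts as the 2 groups alone, because a single siRNA array adds nothing to the measured spread. The cause of the other shifts was not tested. The replicate block changed no call among the subunit genes. With an array omitted, its partner is taken to have the spread of the remaining groups. Of 1149 values of 24 named subunit genes under alternatives, 64 turned sign and 1 passed the threshold.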
